A study of Mus musculus with 6 samples.

Results

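The genes of antigen presentation were followed at day 20 of partial reprogramming in the Braf-mutant mouse melanoma line 4434. The set held 39 of the 18193 genes measured by a probe set of their own: 23 genes whose symbol begins with H2-, the prefix of the mouse major histocompatibility complex (MHC), and 16 of 17 further genes chosen by name. These 39 fell into 13 class I genes, 10 class II genes, 11 genes of peptide processing and loading, 3 regulators of the NLR family and 2 other genes with an H2 name. Psme2, the remaining named gene, and H2 genes such as H2-Q4, H2-Q6 to H2-Q9, H2-T9, H2-T10, H2-T22, H2-T23 and H2-DMb1 were measured only by probe sets that they share with other genes and were left out of the 39. All 23 H2 genes lie on chromosome 17.

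Both groups carried a doxycycline-inducible lentiviral vector for murine Oct4, Sox2, Klf4 and blasticidin resistance, and another for the transactivator with mCherry. The + dox cells received doxycycline and were selected with blasticidin, and the − dox cells held both vectors in medium without doxycycline. Total RNA was hybridised to 6 arrays, 3 per group, and the samples were numbered 1 to 3 in each group. Doxycycline, selection and the factors cannot be told apart in this comparison. It is not stated whether the samples of a group were separate cultures. The spread behind each p-value is that of these samples and may be technical.

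MHC class I molecules show peptides from the cytoplasm to CD8 T cells. A heavy chain (in these mice H2-K1, H2-D1 and relatives) pairs with beta-2 microglobulin (B2m), and the peptides are cut by the proteasome, pumped into the endoplasmic reticulum by the TAP transporter and loaded there with the help of chaperones. Class II molecules show peptides from endosomes to CD4 T cells, mostly on professional antigen-presenting cells. Interferons raise the transcription of both kinds of gene, with Nlrc5 as the main co-activator for class I and Ciita for class II. Loss of class I expression is a well-known route by which tumours escape T cells.

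The promoters of 5 class I pathway genes are shown because these genes shared 1 pattern over the arrays, described next. Each line gives the 250 bases before a listed RefSeq start of the gene (GRCm38.p6), 5′ to 3′ on the strand of the gene. For H2-K1 the listed start lies inside the RefSeq span of the gene, which reaches base 34000619. Its positions are therefore not comparable with those of the other genes. Capitals mark matches on either strand to an interferon regulatory factor motif (GAAANNGAA), a STAT motif (TTCNNNGAA), the CCAAT box (CCAAT) or the core of the cyclic AMP response element (TGACG). The first and the STAT motif can overlap each other.
H2-K1, chr17:34000348-34000597, minus strand: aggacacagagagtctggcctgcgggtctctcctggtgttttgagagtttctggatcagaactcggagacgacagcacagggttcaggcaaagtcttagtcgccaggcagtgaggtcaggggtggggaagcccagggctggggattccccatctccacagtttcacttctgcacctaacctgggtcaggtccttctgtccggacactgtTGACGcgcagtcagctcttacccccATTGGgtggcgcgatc
H2-D1, chr17:35262844-35263093, plus strand: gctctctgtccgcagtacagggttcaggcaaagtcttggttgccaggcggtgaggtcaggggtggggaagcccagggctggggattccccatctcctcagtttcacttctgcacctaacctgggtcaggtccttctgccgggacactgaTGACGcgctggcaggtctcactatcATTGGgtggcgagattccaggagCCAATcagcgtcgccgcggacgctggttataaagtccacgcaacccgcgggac
B2m, chr2:122147437-122147686, plus strand: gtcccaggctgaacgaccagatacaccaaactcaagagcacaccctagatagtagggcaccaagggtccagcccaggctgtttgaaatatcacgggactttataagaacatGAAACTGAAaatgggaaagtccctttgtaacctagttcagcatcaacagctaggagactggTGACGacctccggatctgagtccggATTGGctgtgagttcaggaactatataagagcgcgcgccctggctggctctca
H2-M3, chr17:37269984-37270233, plus strand: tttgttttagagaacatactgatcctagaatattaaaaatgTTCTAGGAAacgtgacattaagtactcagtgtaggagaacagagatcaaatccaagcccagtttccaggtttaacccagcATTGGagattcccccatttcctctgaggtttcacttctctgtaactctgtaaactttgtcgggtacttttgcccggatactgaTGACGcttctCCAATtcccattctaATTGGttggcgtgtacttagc
Tap1, chr17:34187306-34187555, plus strand: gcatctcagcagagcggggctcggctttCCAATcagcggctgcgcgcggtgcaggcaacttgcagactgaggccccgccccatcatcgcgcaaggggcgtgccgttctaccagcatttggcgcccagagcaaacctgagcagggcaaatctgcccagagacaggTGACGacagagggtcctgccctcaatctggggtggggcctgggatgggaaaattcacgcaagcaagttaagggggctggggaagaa

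All 5 promoters held the TGACG core and a CCAAT box. Of the other members with that pattern and a listed promoter, H2-M10.1 and Psmb9 held both, and H2-Ke6 held a CCAAT box without the core. Canx, Pdia3 and H2-Aa, which lack the pattern, also held both. Psmb8, which passed as higher without the arrays numbered 1, held neither. Whether these motifs go with the pattern was not tested. Counted backwards from −1, the base before the start, the core began at position −41 in H2-K1, −101 in H2-D1, −78 in B2m, −46 in H2-M3 and −86 in Tap1. Among these 5, the interferon regulatory factor motif was matched in B2m, where it began at position −139, and the STAT motif in H2-M3. The motif fixes 1 order and spacing of letters. Other arrangements, such as the run gtttcacttct in H2-K1, H2-D1 and H2-M3, were not searched for. A promoter without a match may therefore still hold an interferon element. H2-K1 had a further CCAAT and B2m a further TGACG core past the start, outside the printed bases.

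Over all 32851 promoter windows of the table, each 300 bases long and reaching 50 bases past the start, 8.56% held the interferon regulatory factor motif, 8.3% the STAT motif, 37.4% a CCAAT box and 20.8% the TGACG core. A window was listed for 28 of the 39 members. Of these 28, 3 held the interferon regulatory factor motif (B2m, Erap1 and Psme1), 3 the STAT motif (H2-M3, H2-DMb2 and Psmb8), 20 a CCAAT box and 10 the TGACG core. The windows of H2-K1 and H2-D1 shared an unbroken run of 47 bases, and those of Tap1 and Psmb9, which are transcribed away from each other, overlapped by 275 bases. Where a gene had several starts in the table, as 3 members did, the first was taken. H2-Ab1, H2-Bl, H2-D4, H2-Ea, H2-Q5, H2-T18, H2-T24, Tap2, Nlrc5, Ciita and Cd74 were not matched. Such matches describe the letters and were not tested for binding.

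Array + dox 1 and array − dox 1 stood apart from the other arrays of their groups, and the main results are therefore given with all 6 arrays and without these 2. These arrays were set apart from the same values that the fits use. Over all genes, which are not independent replicates, + dox 1 correlated with + dox 2 and 3 at 0.987 and 0.984 against 0.994 between those, and − dox 1 with − dox 2 and 3 at 0.984 and 0.985 against 0.997. With − dox 2 and 3, + dox 1 correlated at 0.986 and 0.984, about as closely as with its own group. In turn, − dox 1 correlated with + dox 2 and 3 at 0.969 and 0.958, less closely than with its own group. Of the induced factors, Pou5f1 (Oct4) stood at 4.77, 5.32 and 4.92 in + dox arrays 1, 2 and 3 and at 4.13, 4.21 and 4.42 in − dox arrays 1, 2 and 3, Sox2 at 7.53, 7.13 and 6.93 against 7.56, 8.04 and 8.11, and Klf4 at 7.94, 7.48 and 7.76 against 9.23, 7.85 and 7.85. Whether these probe sets read the vector's transcript is not known, so they do not check the labels. Column medians ranged from 5.33 to 5.37, and at most 953 of 45101 values were identical between any 2 arrays. Values are log2 expression, so a difference of 1 is a 2-fold change, and all changes are + dox minus − dox. Of the melanocyte markers, Mitf stood at 6.41, 6.83 and 6.17 in + dox and 8.15, 6.87 and 6.67 in − dox arrays, Gpnmb at 7.76, 7.16 and 6.75 against 10.58, 9.51 and 9.45, and over all arrays Tyr ran from 3.31 to 3.69 and Pmel from 5.25 to 5.43. Without a detection call, presence or absence cannot be read from such levels.

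With all 6 arrays, 0 of 39 members passed the test as higher in + dox cells and 1, Nlrc3, passed as lower. Over all genes, 3.07% were called higher and 1.8% lower (limma, adjusted p under 0.05). At an unadjusted p under 0.05 the members were 3 of 39 (Nlrc3, Cd74 and Tap2), all lower, where 21.7% of all genes were under it. The median change was 0.18 over the class I genes, 0.01 over the class II genes, 0.18 over the processing genes and 0.01 over all genes. Groups did not overlap for 1 member with a higher level (H2-T3) and for 4 with a lower level (Nlrc3, Cd74, Tap2 and Canx), against 14.3% and 12.6% of all genes.

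H2-K1, a classical class I heavy chain, stood at 12.17, 13.04 and 13.05 in + dox arrays 1, 2 and 3 and at 12.65, 11.59 and 11.46 in − dox arrays 1, 2 and 3. The groups overlapped: + dox 1 was below − dox 1, while + dox 2 and 3 were above every − dox array. Below, a count of this order means only that + dox 1 was the lowest + dox array and − dox 1 the highest − dox array. How the groups lie to each other is not part of that count. The change was 0.85 (SE 0.38, 95% interval −0.06 to 1.77, limma adjusted p = 0.262). Without both arrays numbered 1, it was 1.52 (SE 0.11, 2.87-fold, adjusted p = 0.000450).

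H2-D1, the other classical heavy chain, stood at 12.17, 13.09 and 13.03 in + dox and at 12.74, 11.76 and 11.57 in − dox arrays. The order of the arrays was that of H2-K1. Its change was 0.74 (SE 0.37, adjusted p = 0.325) over 6 arrays and 1.40 (SE 0.12, adjusted p = 0.000803) without the arrays numbered 1. B2m, the light chain of every class I molecule, stood at 12.87, 13.55 and 13.61 in + dox and at 13.34, 12.84 and 12.71 in − dox arrays. Again + dox 1 was the low array of its group and − dox 1 the high one. The change of B2m was 0.38 (SE 0.25, adjusted p = 0.454), and 0.81 (SE 0.11, adjusted p = 0.00500) without those 2 arrays.

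H2-M3, a non-classical class I gene whose product binds formylated bacterial peptides, followed the same order, at 6.33, 7.09 and 7.04 in + dox and 7.20, 5.86 and 5.93 in − dox arrays. Its − dox 1 value was the top of all 6, above + dox 2 and 3. The change was 0.49 (SE 0.40, adjusted p = 0.550) over 6 arrays and 1.17 (SE 0.11, adjusted p = 0.00107) without the arrays numbered 1. H2-M10.1, of a family known from the vomeronasal organ, changed by 0.28 (SE 0.21) and by 0.61 (SE 0.14, adjusted p = 0.0269) without them, from low levels of 4.77 to 5.55.

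The other 8 class I genes passed neither test. H2-T3, which encodes the thymus leukaemia antigen, stood at 5.55, 5.74 and 5.65 in + dox and at 5.39, 5.50 and 5.50 in − dox arrays. Its groups did not overlap, yet the change of 0.18 (SE 0.10, adjusted p = 0.340) was small. H2-Bl and H2-Q5 (both pseudogenes in RefSeq), H2-M9, H2-Q2, H2-Q10, H2-T18 and H2-T24 changed by between −0.12 (H2-T18) and 0.19 (H2-Q5). H2-Q2 lay between 2.41 and 2.72, H2-M9 between 3.18 and 3.76, H2-T18 between 3.34 and 3.65 and H2-Q5 between 3.43 and 3.89. These levels are near or under the lower quartile of all values (3.88), where a change in the RNA would be hard to see.

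**Figure D1:**
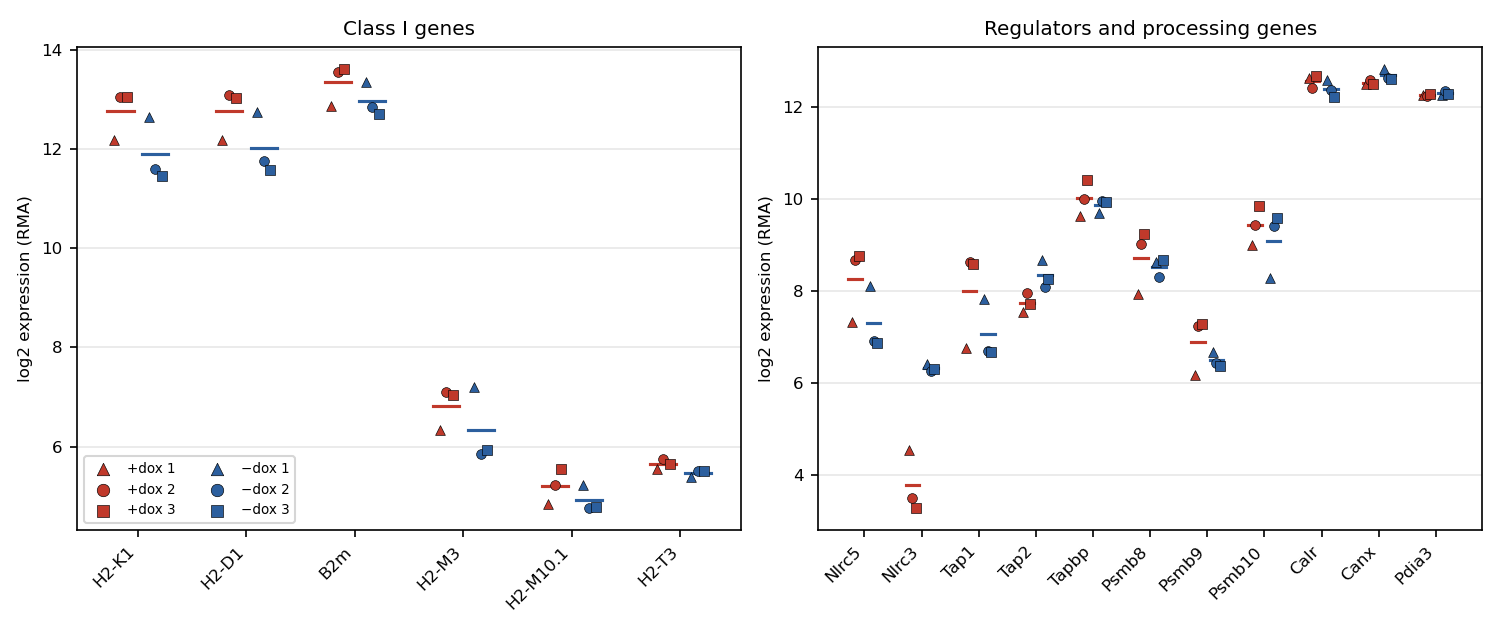
Log2 expression (y axis) in each array for 6 class I genes (left) and for 11 regulators and processing genes (right). Red marks are + dox and blue − dox arrays, the shape gives the array number, and the lines are group means. In H2-K1, H2-D1, B2m, H2-M3, Nlrc5 and Tap1 the red triangle (+ dox 1) lies below the other red marks and the blue triangle (− dox 1) above the other blue marks. Levels of different genes come from different probes and are not comparable.

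The heavy chains were read by several probe sets, and the MHC genes are near-identical copies, so a probe set may read several of them at once, which was not tested. All 4 probe sets of H2-K1 had a change above 0, from 0.63 to 1.62, and all 4 had + dox 1 as the low and − dox 1 as the high array of its group. All 4 carry the suffix _x_at for possible cross-hybridisation, so H2-K1 has no value in the fit without such probe sets. The set kept for H2-D1 carries it too. Agreement among these sets and between H2-K1 and H2-D1 is therefore not independent support. The probe set 1427746_x_at stood at 8.57, 10.40 and 10.44 in + dox and at 9.34, 7.75 and 7.46 in − dox arrays. There the change was 1.62 (SE 0.67, adjusted p = 0.264), and 2.82 without the arrays numbered 1. The 9 probe sets of H2-D1 had changes between 0.10 and 1.55, and 8 of 9 held the same order of arrays.

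One of the H2-D1 probe sets passed the test over 45037 probe sets. It stood at 6.30, 6.41 and 6.33 in + dox and at 5.89, 5.74 and 5.76 in − dox arrays, which do not overlap, and rose by 0.55 (SE 0.09, adjusted p = 0.0394). Another, 1426324_at, which carries no suffix for possible cross-hybridisation, stood at 8.55, 9.49 and 9.79 against 8.03, 7.52 and 7.63. Its groups were apart also in the arrays numbered 1, and its change was 1.55 (SE 0.33, adjusted p = 0.0668). Of all 77 member probe sets, 1 passed as higher and 1 as lower (Nlrc3), where 2.53% of all probe sets passed in either direction. Without the arrays numbered 1, 17 of 77 passed as higher against 6.04% of all, and 14 of these 17 were class I probe sets, most of them of H2-K1 (4) and H2-D1 (7).

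**Figure D2:**
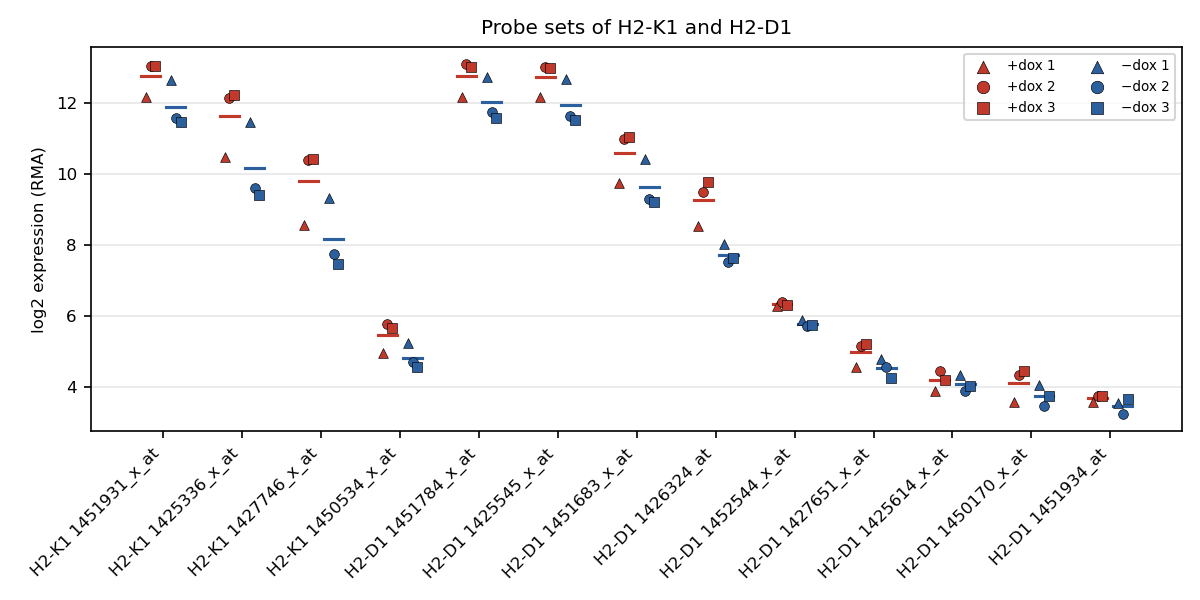
Log2 expression (y axis) in each array for the 4 probe sets of H2-K1 and the 9 of H2-D1, in order of their mean within each gene. Red is + dox, blue − dox, shapes give the array number and lines the group means. For the 6 brightest x_at sets, + dox 1 lies below − dox 1, and for 1426324_at and 1452544_x_at it lies above.

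In Nlrc5, a co-activator of class I genes, + dox 1 was the low and − dox 1 the high array of its group, as in 14% of all genes. A link between Nlrc5 and the class I genes was not tested. Nlrc5 stood at 7.34, 8.68 and 8.77 in + dox and at 8.12, 6.93 and 6.87 in − dox arrays. The change was 0.96 (SE 0.49, 95% interval −0.21 to 2.13, adjusted p = 0.328) over 6 arrays and 1.83 (SE 0.11, 3.54-fold, adjusted p = 0.000222) without the arrays numbered 1.

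Nlrc3, an NLR known as a brake on innate immune signalling, was the member that passed the test. Nlrc3 stood at 4.56, 3.50 and 3.30 in + dox and at 6.43, 6.27 and 6.32 in − dox arrays. All + dox arrays lay below all − dox arrays, and + dox 1 was nearest to them. Nlrc3 fell by 2.55 (SE 0.32, adjusted p = 0.0139). Since + dox 2 and 3 lay under the lower quartile of all values (3.88) and whether they exceed background was not tested, this difference is not given as a fold. The call was lost without + dox 2 (adjusted p = 0.0694), + dox 3 (0.0518), − dox 2 (0.0638) or − dox 3 (0.0736), with changes from −2.31 to −2.59. The other Nlrc3 probe set, at 4.10, 4.03 and 4.13 against 4.41, 4.49 and 4.50, changed by −0.38 (SE 0.09, adjusted p = 0.0808).

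Ciita, the master regulator of class II genes, stood at 4.40, 4.66 and 4.26 in + dox and at 4.77, 4.55 and 4.24 in − dox arrays. These values overlapped, with a change of −0.08 (SE 0.17, 95% interval −0.49 to 0.33, adjusted p = 0.851).

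Tap1, a subunit of the peptide transporter, stood at 6.77, 8.63 and 8.60 in + dox and at 7.83, 6.70 and 6.68 in − dox arrays. The value of + dox 1 was at the level of − dox 2 and 3, and that of − dox 1 lay between the groups. The change was 0.93 (SE 0.57, adjusted p = 0.416), and 1.93 (SE 0.11, 3.80-fold, adjusted p = 0.000168) without the arrays numbered 1. Of the 4 Tap1 probe sets, this was the 1 that passed there, and the others changed by 0.59 (adjusted p = 0.0633), −0.01 and −0.01. Tap2, the partner subunit, did not follow Tap1: it stood at 7.56, 7.97 and 7.72 in + dox and at 8.68, 8.10 and 8.26 in − dox arrays. All + dox values of Tap2 lay below all − dox values. Its change was −0.60 (SE 0.18, adjusted p = 0.122), and −0.34 (SE 0.14, adjusted p = 0.149) without the arrays numbered 1.

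Psmb8 and Psmb9 are catalytic subunits of the immunoproteasome, whose genes lie beside Tap1. Psmb8 stood at 7.93, 9.02 and 9.24 in + dox and at 8.63, 8.31 and 8.67 in − dox arrays, and Psmb9 at 6.17, 7.24 and 7.28 against 6.68, 6.44 and 6.37. In both genes + dox 1 was the lowest of the 6 arrays and + dox 2 and 3 the highest. Over 6 arrays the changes were 0.19 (SE 0.34, adjusted p = 0.810) and 0.40 (SE 0.30, adjusted p = 0.520), and without the arrays numbered 1 they were 0.64 (adjusted p = 0.0357) and 0.86 (adjusted p = 0.00345). Psmb9 also passed when only + dox 1 was left out, at 0.76 (adjusted p = 0.0256). Psmb10, the third such subunit, stood at 9.01, 9.45 and 9.86 against 8.28, 9.42 and 9.60, so − dox 1 was here the lowest array, and its change was 0.34 (SE 0.38, adjusted p = 0.684).

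The chaperones and the peptide trimmer passed no test. Tapbp (tapasin, which holds class I at the transporter) stood at 9.63, 10.01 and 10.42 in + dox and at 9.70, 9.96 and 9.95 in − dox arrays, a change of 0.15 (SE 0.21). Calr (calreticulin) stood at 12.63, 12.42 and 12.68 against 12.60, 12.37 and 12.23, and Canx (calnexin) at 12.51, 12.59 and 12.50 against 12.83, 12.64 and 12.62. The changes were 0.18 (SE 0.13) and −0.16 (SE 0.10), and for Canx the groups did not overlap. Pdia3, the disulphide isomerase of the loading complex, varied from 12.25 to 12.34 over the 6 arrays, with a change of −0.03 (95% interval −0.23 to 0.17). Erap1, which trims peptides, and Psme1, a proteasome activator subunit, changed by 0.22 (SE 0.14) and −0.16 (SE 0.14).

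Of the class II genes, 0 of 10 passed, and 1 (Cd74) had an unadjusted p under 0.05, against 21.7% of all genes. H2-Aa, an alpha chain, stood at 4.52, 4.73 and 4.48 in + dox and at 4.56, 4.76 and 4.52 in − dox arrays, and H2-Ab1, its beta chain, at 4.40, 4.55 and 4.31 against 4.61, 4.50 and 4.58. H2-Eb1, a beta chain of the other class II molecule, stood at 5.34, 5.61 and 5.60 against 5.42, 5.50 and 5.41. All of these overlapped between groups. Their changes were −0.04, −0.14 and 0.07, with SEs of 0.12, 0.10 and 0.11. Without the arrays numbered 1 they were −0.04, −0.11 and 0.15, also short of the test.

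The remaining chains H2-Ea (a pseudogene in RefSeq) and H2-Eb2, the peptide exchange subunits H2-DMa and H2-DMb2 and the subunits H2-Oa and H2-Ob of their inhibitor changed by between −0.07 and 0.14. H2-Ob lay between 2.71 and 2.94. Cd74, the invariant chain that guides class II to endosomes, stood at 5.79, 5.71 and 5.60 in + dox and at 6.47, 5.99 and 6.14 in − dox arrays. All + dox values were lower, with a change of −0.50 (SE 0.14, adjusted p = 0.106), and −0.41 (SE 0.12, adjusted p = 0.0581) without the arrays numbered 1. Of these 10 genes, each read by a probe set of its own, 0 had the order of arrays seen in H2-K1. It was held by 6 of 13 class I genes and by 14% of all genes. Both probe sets shared by H2-DMb2 and H2-DMb1 had it. Of the 10, 1 (H2-Ea) had a mean level above the median of all genes (6.63), against 3 of 13 class I genes. Low levels limit what can be seen, so the classes are not compared at like levels.

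H2-Ke6 has an H2 name from its place in the MHC but encodes a steroid and fatty acid dehydrogenase. It stood at 6.35, 6.82 and 6.53 in + dox and at 8.50, 6.82 and 6.77 in − dox arrays. Only − dox 1 lay apart from the other arrays. The change was −0.80 (SE 0.46, adjusted p = 0.390), and −0.12 (SE 0.14) without the arrays numbered 1. H2-D4, a pseudogene in RefSeq, changed by −0.14 (SE 0.12).

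**Figure D3:**
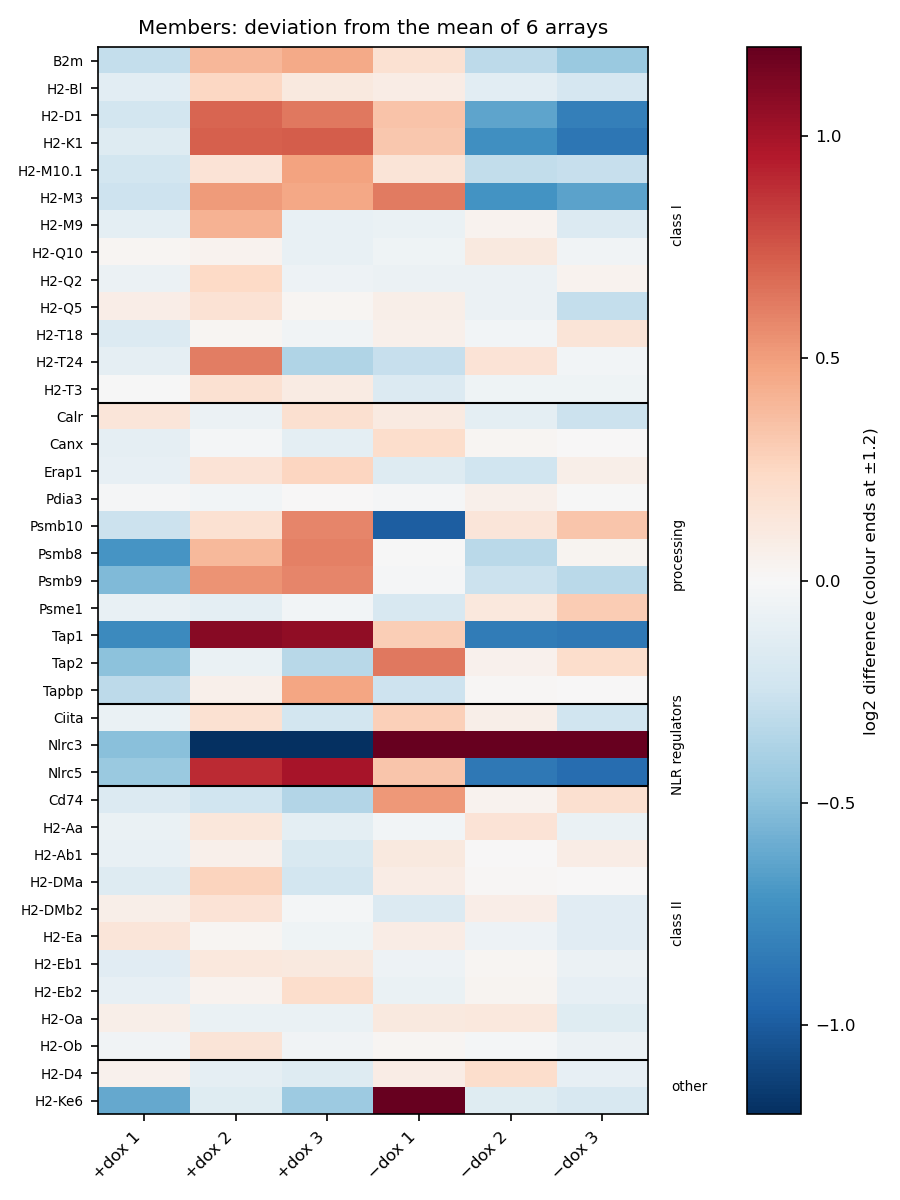
Each member's deviation from its mean over the 6 arrays (colour, log2 difference, ending at ±1.2), with arrays as columns and the 39 members as rows by class. H2-K1, H2-D1, B2m, H2-M3, Tap1 and Nlrc5 are red in + dox 2 and 3 and in − dox 1, and blue in + dox 1 and in − dox 2 and 3, while class II rows stay pale apart from Cd74.

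Over all members, 11 of 39 (28.2%) had + dox 1 as the lowest + dox array together with − dox 1 as the highest − dox array, against 14% of all genes. By class these were 6 of 13 class I genes (B2m, H2-Bl, H2-D1, H2-K1, H2-M10.1 and H2-M3), 3 of 11 processing genes (Tap1, Tap2 and Psmb9), Nlrc5, and H2-Ke6. Without both arrays numbered 1, 9 of 39 members passed as higher against 10.3% of all genes, and 1 (Nlrc3) as lower against 9.79%. The 9 were 5 class I genes (B2m, H2-D1, H2-K1, H2-M10.1 and H2-M3), Tap1, Psmb8, Psmb9 and Nlrc5. With 2 arrays per group this fit rests on 4 arrays, and what set the arrays numbered 1 apart was not tested. For a gene with + dox 1 low and − dox 1 high, leaving both out shifts the change upwards by construction. Its smaller p-value there is therefore not separate support.

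**Figure D4:**
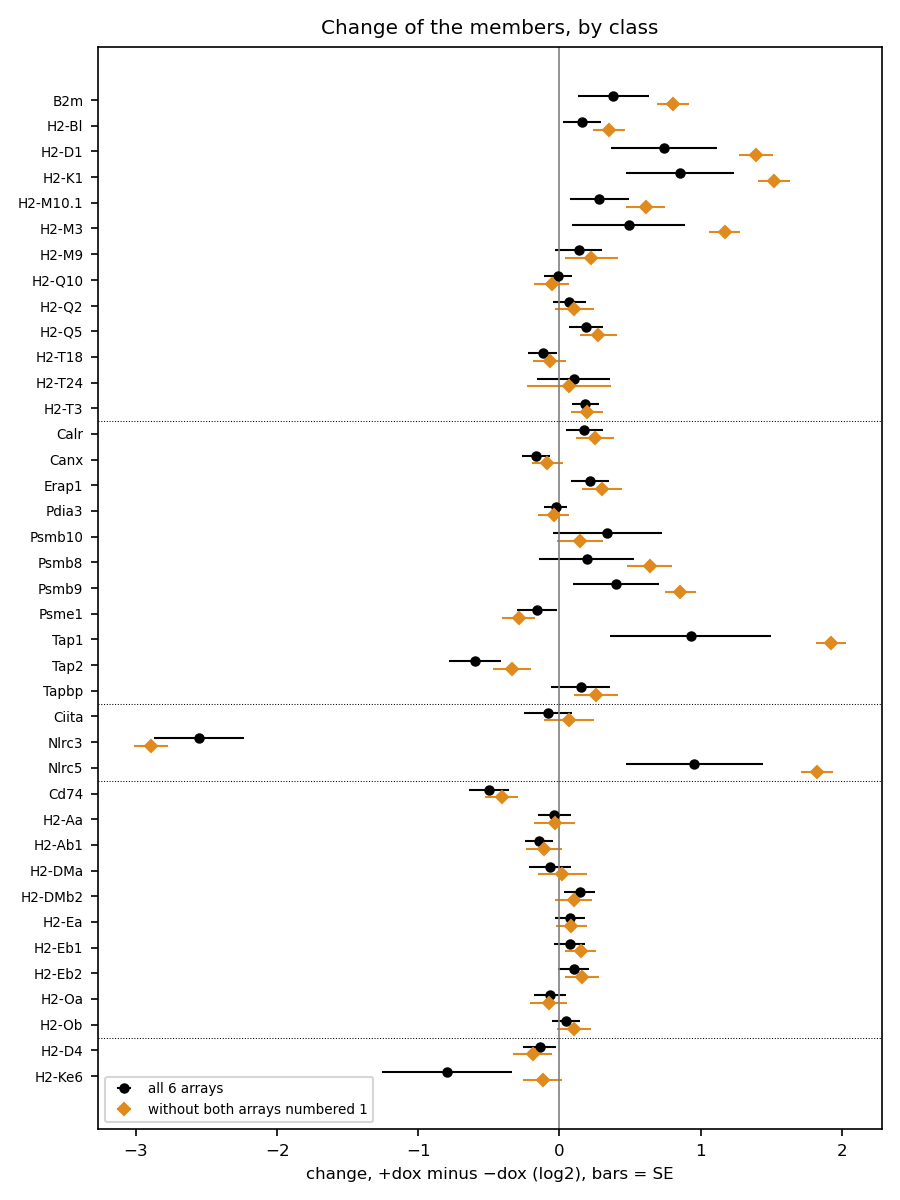
Change of each member (x axis, log2, + dox minus − dox, bars are SE) with all 6 arrays (black circles) and without both arrays numbered 1 (orange diamonds), by class from class I at the top through processing, regulators and class II to the other H2-named genes. Leaving the 2 arrays out moved H2-K1 from 0.85 to 1.52, Tap1 from 0.93 to 1.93 and Nlrc5 from 0.96 to 1.83, and narrowed their bars. In these genes + dox 1 was the low and − dox 1 the high array of its group, so the upward move follows by construction.

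Of 21 regulators of MHC transcription, 0 passed the 6-array test in either direction and 7 had an unadjusted p under 0.05, a threshold that 21.7% of all genes met. Jak1, a kinase of interferon receptors, stood at 10.57, 11.59 and 11.59 in + dox and at 9.97, 10.28 and 10.39 in − dox arrays, a change of 1.04 (SE 0.29, adjusted p = 0.102). Creb1, which binds the cyclic AMP response element, changed by −0.45 (SE 0.13, adjusted p = 0.103). Without the arrays numbered 1, 5 regulators passed as higher and 4 as lower, against 10.3% and 9.79% of all genes. Among them Irf9, part of the interferon-stimulated transcription complex, stood at 6.10, 8.88 and 8.92 against 7.45, 6.75 and 6.68, the array order of H2-K1, and Irf1 at 9.32, 9.21 and 9.30 against 9.22, 9.81 and 10.12. The 2 genes moved in opposite directions there, by 2.19 (adjusted p = 0.000109) and −0.71 (adjusted p = 0.0161). Both were picked after their values were seen.

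The constitutive proteasome and peptidase genes gave 0 of 22 calls in either direction and 1 unadjusted p under 0.05, against 21.7% of all genes. It was that of Psme3, a nuclear proteasome activator, at 0.67 (SE 0.16, limma adjusted p = 0.0629). The next smallest p was that of the peptidase gene Nrd1, at 0.28 (SE 0.13, adjusted p = 0.265). Of 15 other folding and loading genes of the endoplasmic reticulum, 1 rose and 0 fell, against 3.07% and 1.8% of all genes. The gene that rose was Tapbpl, a tapasin-related peptide editor of class I, at 7.23, 7.22 and 7.46 in + dox and 6.25, 6.55 and 6.49 in − dox arrays. All + dox values, that of + dox 1 included, were above all − dox values, and the rise was 0.87 (SE 0.12, adjusted p = 0.0180). Ganab, a glucosidase subunit, had the next smallest p, at −0.30 (SE 0.10, adjusted p = 0.151).

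Of 12 endosomal genes of class II processing, 1 rose and 0 fell, against 3.07% and 1.8% of all genes. Ifi30, a lysosomal thiol reductase, stood at 10.57, 10.42 and 11.00 in + dox and at 9.50, 9.86 and 9.70 in − dox arrays, a rise of 0.98 (SE 0.18, adjusted p = 0.0349). Ctsb (cathepsin B) changed by −1.15 (SE 0.24, adjusted p = 0.0516). The class I-like molecules without an H2 symbol gave 0 of 8 calls and 3 unadjusted p-values under 0.05, where 21.7% of all genes were under it. Among these were Fcgrt, the neonatal Fc receptor, at −0.56 (SE 0.18, limma adjusted p = 0.134) and Cd1d1, which presents lipids, at −0.83 (SE 0.28, adjusted p = 0.143).

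Of 13 ligands that T cells read beside the MHC, 3 rose and 0 fell, against 3.07% and 1.8% of all genes. Lgals9 (galectin-9) stood at 9.94, 10.64 and 11.09 in + dox and at 5.70, 5.82 and 6.22 in − dox arrays, a rise of 4.64 (SE 0.30, adjusted p = 0.00113). Vtcn1 (B7-H4, an inhibitory ligand) stood at 5.70, 5.59 and 5.86 against 3.51, 3.50 and 3.47. The − dox values lay under the lower quartile of all values, and whether they exceed background was not tested. It rose by 2.22 (SE 0.10, adjusted p = 0.000292), and Tnfsf9 (the ligand of 4-1BB, co-stimulatory) rose by 1.33 (SE 0.26, adjusted p = 0.0406). In these 3 genes + dox 1 lay with the other + dox arrays. Cd274 (PD-L1) stood at 5.40, 7.27 and 7.43 against 6.44, 5.54 and 5.70, the array order of H2-K1, with a change of 0.81 (SE 0.56, adjusted p = 0.475), and was named after its values were seen.

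**Figure D5:**
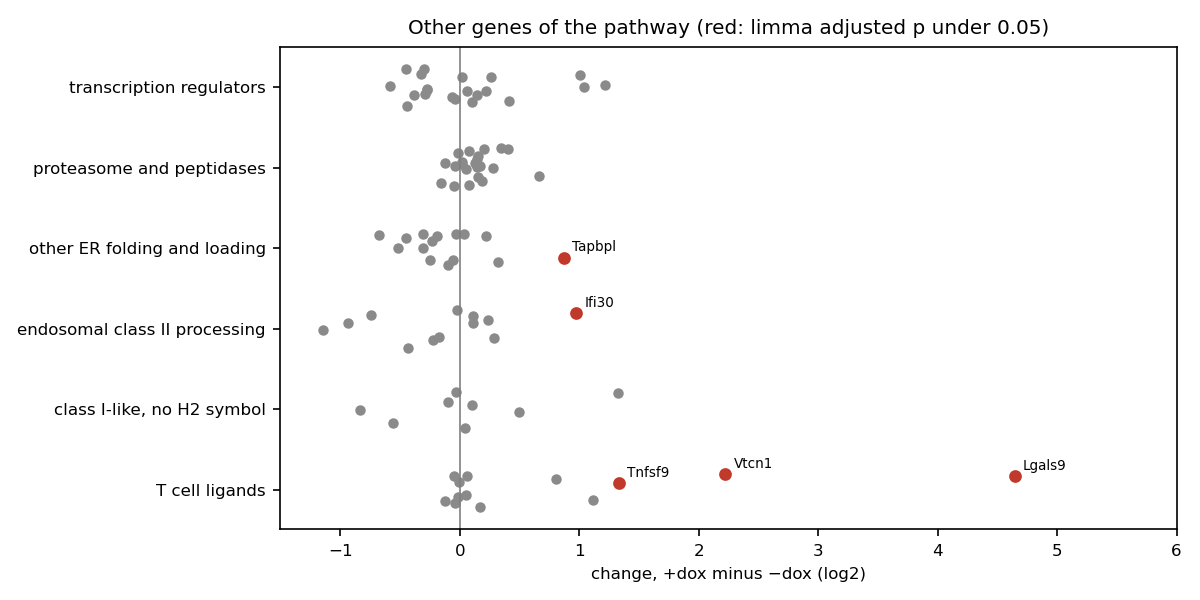
Change over 6 arrays (x axis, log2, + dox minus − dox) of the measured genes of 6 further lists, 1 point per gene, spread vertically at random within a list. Red points passed the limma test: Tapbpl, Ifi30, Tnfsf9, Vtcn1 and Lgals9, with changes from 0.87 to 4.64.

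Fewer expressing cells and less RNA per cell cannot be told apart in these bulk samples, and other cell types could carry MHC genes. Of 16 immune cell markers, 0 passed the 6-array test in either direction. An unadjusted p under 0.05 was found for 2 (Coro1a, −0.58, and Flt3, −0.45), against 21.7% of all genes. Without the arrays numbered 1, Cd68 passed as higher (2.23, limma adjusted p = 0.000109) and Coro1a as lower (−0.69, adjusted p = 0.0106), against 10.3% and 9.79% of all genes. The summed level of the list ran from 9.25 to 9.46 in + dox and from 9.15 to 9.35 in − dox arrays. The median change of the list was 0.01. The defining marker Ptprc (CD45) lay between 2.78 and 3.08 and Cd3e between 5.39 and 5.63. Itgam, a myeloid marker, stood at 3.51, 3.95 and 5.84 in + dox and at 3.20, 3.26 and 3.33 in − dox arrays. All its + dox values were above all − dox values, with a change of 1.17 (SE 0.56, limma adjusted p = 0.301). Cd68, a lysosomal protein of macrophages that other cells also make, stood at 6.40, 7.06 and 7.12 against 7.14, 4.91 and 4.82. It was high in the arrays where the class I genes were high, and its part in that pattern was not tested. Of the fibroblast markers 0 of 8 passed and 1 (Dcn, 0.85) had an unadjusted p under 0.05, against 21.7% of all genes. Dcn passed as higher without the arrays numbered 1 (0.89, limma adjusted p = 0.00378), against 10.3% of all genes. Of the melanocyte markers 1 of 9 passed as lower, against 1.8% of all genes. It was Gpnmb, which fell by 2.62 (SE 0.38, limma adjusted p = 0.0185).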

How the data were processed

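RNA from 3 + dox and 3 − dox samples at day 20 was hybridised to Affymetrix mouse genome arrays. The authors deposited log2 expression values, made with RMA in Chipster software (version not given in the sources used here). RMA corrects for background, sets the arrays to 1 distribution and summarises the probes of a set. The scale is not stated and was inferred from RMA and from the range of 2.08 to 14.44. Of 45101 probe sets 64 array controls were left out, and 34945 had 1 gene in the platform annotation. Symbols, starts and promoters came from RefSeq (GRCm38.p6), where all 39 members had an entry and 0 symbols changed. For each of 18193 genes, the probe set of highest mean was kept. The comparison used lmFit and eBayes (limma 3.58.1, R 4.3.3, two-sided, with group as the single term), Benjamini-Hochberg adjustment over all genes, or over 45037 probe sets, and a threshold of 0.05. Motifs were searched with Python 3.11.15.

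Members and lists were chosen with earlier results of these data known. Every member was named, and values per array were given for the members that passed and for the main genes of each class. Of each list, the genes that passed were named, or the 2 with the smallest p. Same-numbered arrays did not deviate together (correlations of −0.12, −0.22 and 0.08), so numbers were not taken as pairs. Alternatives comprised the replicate block, other choices of 1 value per gene, filters at 20% and 40%, trend and robust settings, renormalisation, other thresholds, and arrays left out. The number of arrays limits the precision.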

Additional observations from a re-analysis of the deposited data

How the results depend on the processing

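The count of members called higher was 0 with all 6 arrays, 9 without both arrays numbered 1, 1 without probe sets marked _x_at or _s_at (H2-D1, a change of 1.55, limma adjusted p = 0.0499) and 1 with probe sets in place of genes (H2-D1). Leaving out 1 array at a time gave 0 to 1, the 1 being Psmb9 without + dox 1. The count called lower was 1 (Nlrc3), with 0 at an adjusted p under 0.01 (0.0139), 0 with the treat test for changes over 1.5-fold (adjusted p = 0.0542), and 0 to 1 when 1 array was left out. With the number as a replicate block it was 0 higher and 1 lower, and the block changed no call of a member. Of 762 values of single members under 20 alternatives, 719 kept their sign and their side of the threshold, 11 newly passed, 6 no longer passed (all Nlrc3) and 26 changed sign with neither value past the threshold. The cause of these shifts was not tested, beyond the fewer arrays of the fits that leave some out. Dim probe sets, such as those of H2-Q2 and H2-Ob, limit what can be seen of those genes.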

Other observations

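A further 16 probe sets matched several genes, at least 1 of them a member, and entered no gene test. In the test over all probe sets 0 of these 16 passed with 6 arrays, also at an unadjusted p under 0.05. Without both arrays numbered 1, 7 of the 16 passed as higher, against 6.04% of all probe sets. The set shared by H2-K1 and H2-D1 stood at 8.22, 10.07 and 10.17 in + dox and at 9.35, 7.25 and 7.25 in − dox arrays, with a change of 1.54 (limma adjusted p = 0.342) and of 2.87 (adjusted p = 0.000335) without the arrays numbered 1. The order of arrays seen in H2-K1 was held by 9 of the 16, among them several sets of non-classical class I genes of the Q and T regions. Over all genes the share was 14%, and over all probe sets it was not counted. Some of the 16 sets read the same genes, so they are not separate members. The set of H2-Q6, H2-Q8 and H2-Q4 stood at 6.74, 9.14 and 9.23 against 8.06, 7.18 and 7.00, and that of H2-Q9 and H2-Q7 at 4.53, 6.25 and 6.41 against 5.25, 4.25 and 4.16. One set of H2-T23, whose product Qa-1 is a ligand of natural killer cell receptors, and of the pseudogene H2-T-ps stood at 5.14, 7.90 and 7.09 against 6.81, 5.87 and 5.60. One set of H2-T9, H2-T22 and H2-T10 stood at 8.87, 10.42 and 10.66 against 9.51, 9.05 and 9.22. The other set of these genes did not hold that order, at 5.41, 5.65 and 5.36 against 5.34, 5.51 and 5.35.

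Among class II probe sets, both sets shared by H2-DMb2 and H2-DMb1 held it too. One of them stood at 7.28, 8.06 and 7.76 in + dox and at 7.99, 7.35 and 7.07 in − dox arrays, with a change of 0.23 (adjusted p = 0.750) and of 0.70 (adjusted p = 0.0497) without the arrays numbered 1. The set shared by Psme2 and Psme2b changed by 0.02 (adjusted p = 0.976). Procr, the endothelial protein C receptor, which has a class I-like fold, stood at 9.53, 11.03 and 11.09 in + dox and at 10.06, 9.05 and 8.56 in − dox arrays, with a change of 1.33 (adjusted p = 0.214) and of 2.26 (adjusted p = 0.000516) without the arrays numbered 1.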
